A study of Mus musculus with 73 samples.

Results

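Aqp11 encodes aquaporin 11. Here it was described across 73 single cells from mouse cochlea as 1 gene of 55291 in the count table, set beside the other 10 aquaporin genes whose symbol is Aqp and a number. Aqp11 was chosen by its measured level over these same cells: of all genes that averaged at least 10 CPM (read counts scaled to a common library total), it had the highest rank correlation with Slc26a5. Slc26a5 encodes prestin. The correlations of Aqp11 with Slc26a5 and with all other genes are therefore given as descriptions, with no test.

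The cells were taken at postnatal day 14 and form 1 group. All carried Atoh1Cre/+, Casz1flox/flox, the reporters Rosa26-CAG-Loxp-stop-Loxp-3xGFP(Ai47) and Rosa26-CAG-Frt-stop-Frt-tdTomato on the 2 Rosa26 alleles, and Fgf8-Flpo/+. Atoh1, a gene of developing hair cells, drove the Cre that deletes Casz1 and turns on GFP, and Fgf8, an inner hair cell gene, drove the Flp recombinase that turns on tdTomato. Doubly coloured cells were hand-picked and are labelled Casz1-null inner hair cells. Wild-type cells were not analysed here. No label ties a cell to an animal, so the 73 cells count as 1 sample, and no value below has a spread over animals. Casz1 itself had a median of 42.1 CPM and reached 10 CPM in 55 of the 73 cells. A count over a whole gene need not fall when part of the gene is removed, so this does not check the deletion. Of 16 genes general to hair cells, 9 reached 10 CPM in every cell, with a median of 14 per cell (11 to 16). The inner hair cell genes Slc17a8 and Otof reached 10 CPM in all 73 cells.

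Inner hair cells signal sound to the auditory nerve. Outer hair cells amplify it by changing length. Prestin is the membrane motor protein of outer hair cells that does this, and Slc26a5 is their usual marker. Aquaporins are membrane channels for water and, in some members, for glycerol or hydrogen peroxide. Aquaporin 11 belongs to the distantly related branch called superaquaporins and sits mainly in the membrane of the endoplasmic reticulum (ER). Mice without it are known for vacuolated kidney tubules and kidney cysts. In the cochlea, Aqp4 is known from supporting cells, Aqp5 from the outer sulcus and Aqp1 from fibrocytes.

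Aqp11 lies on chromosome 7 of mm10 from 97724006 to 97738289 on the minus strand, by the GENCODE vM21 annotation. Its coding transcript has 3 exons of 921, 117 and 2699 bases in the order of transcription, and the annotation lists 5 transcripts. It overlaps no other annotated gene. Slc26a5 lies on chromosome 5 from 21810655 to 21865604, also on the minus strand. Among genes averaging at least 10 CPM, each of these had its highest rank correlation over cells with the other. The stretch from 42 to 250 bases before the RefSeq start of each is therefore shown, from the GRCm38.p6 assembly. Each run reads 5′ to 3′ on the gene's own strand, and capitals mark the matches, on either strand, to the motifs described after it.
Aqp11 (chr7:97738290-97738497): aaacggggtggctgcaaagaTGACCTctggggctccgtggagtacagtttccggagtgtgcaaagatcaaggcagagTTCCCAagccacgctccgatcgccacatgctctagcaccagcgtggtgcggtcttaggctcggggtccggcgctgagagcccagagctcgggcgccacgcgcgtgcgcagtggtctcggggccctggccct
Slc26a5 (chr5:21865647-21865854): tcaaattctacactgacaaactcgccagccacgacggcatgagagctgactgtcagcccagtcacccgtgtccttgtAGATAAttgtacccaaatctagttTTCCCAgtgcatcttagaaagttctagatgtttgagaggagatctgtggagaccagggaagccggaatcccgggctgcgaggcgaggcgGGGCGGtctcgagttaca

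The stretch before Aqp11 was 65.4% G and C and held 18 CpG pairs. That before Slc26a5 was 52.9% G and C with 11 CpG pairs. Over 32851 stretches of the same length in the RefSeq table, the medians were 51.9% and 4. Of 9 short motifs searched on both strands, TGGGAA, the core that Ikaros-family factors bind, was found in both stretches and in 18.5% of all stretches. Aqp11 also held AGGTCA, a nuclear receptor half-site, found in 11.9% of all stretches. Slc26a5 also held the site of GATA factors with the letters AGATAA, found in 8.70% of all stretches. It held a GC box too, of the letters GGGCGG, found in 26.2%. Neither stretch held the E-box CAGCTG, the box named CCAAT, the TATA box TATAAA, the T-box half-site GGTGTGA or the RFX half-site GTTGCC. No motif match overlapped another in these stretches. A match is a run of letters and not a binding site.

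Aqp11 was present in most cells, and its level spanned a wide range. The lowest value was 0 CPM (11 cells), the median was 65.4 CPM, the quartiles were 2.67 and 389 CPM, and the highest was 1636 CPM. It reached 10 CPM, called detected below, in 54 of 73 cells (74.0%, exact Clopper-Pearson 95% interval 62.4% to 83.5%). The interval covers counting error over cells only. There were 31 cells at 100 CPM or more. The 7 highest cells, numbered as in the labels, were cells 64, 70, 60, 20, 4, 34 and 35, at 1636, 1492, 1305, 1298, 1288, 1275 and 1232 CPM. The count behind the highest value was 20792 reads. No cell lay between 2.67 and 10.5 CPM, so a detection threshold of any value in that gap gives the same 54 cells. Totals ran from 11027945 to 37183702 counts, so 10 CPM took 111 reads in the smallest library and 372 in the largest. A level of 0 says that no read was counted, not that the cell held no transcript.

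Slc26a5 had a like spread, with quartiles of 3.47 and 381 CPM around a median of 73.1 CPM and a highest value of 1229 CPM. It was detected in 51 cells. Per kilobase of exon of coding transcripts (3.737 kb for Aqp11, 2.962 kb for Slc26a5), the mean level was 73.5 CPM per kb for Aqp11 and 73.6 for Slc26a5, and the median level was 17.5 and 24.7 CPM per kb. Both genes were highest in the same cell.

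**Figure D1:**
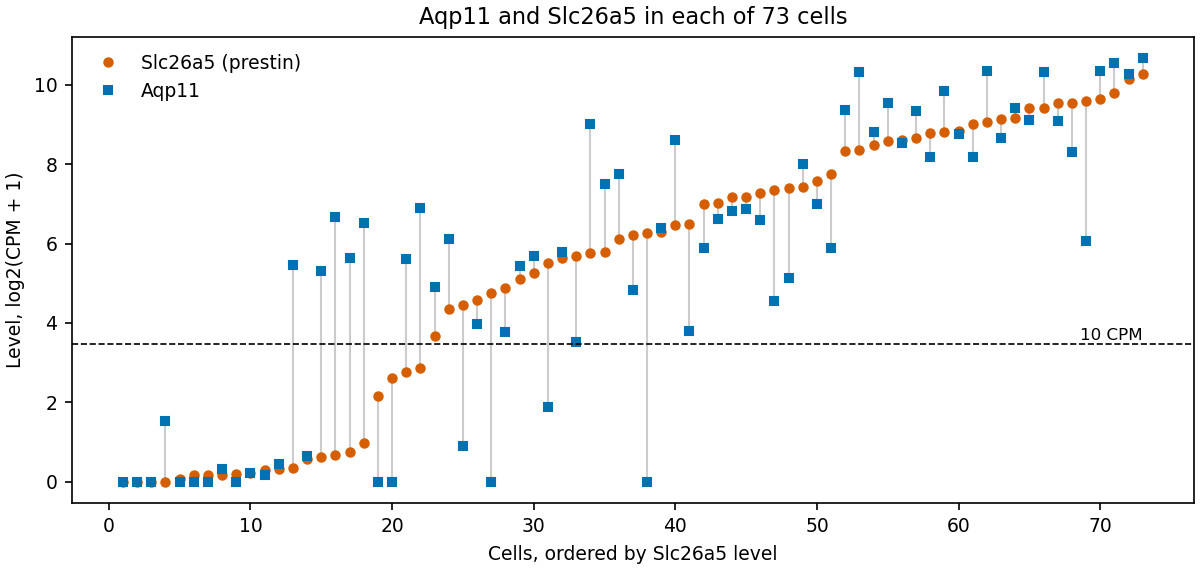
Level of Aqp11 (squares) and Slc26a5 (circles) as log2(CPM + 1) in each of the 73 cells, ordered along the x axis by Slc26a5, with a grey line joining the 2 values of a cell and a dashed line at 10 CPM. Aqp11 was detected in each of the 32 cells with Slc26a5 at 100 CPM or more, and in 7 of the 22 cells with Slc26a5 under 10 CPM.

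The rank correlation (Spearman) of Aqp11 with Slc26a5 over the 73 cells was 0.84. Each gene was the other's highest partner among 8619 genes averaging at least 10 CPM. Both levels of a cell come from 1 library and share its total, and the relation to library properties is given further on. Detection overlapped but was not the same. Both genes were detected in 47 cells, Aqp11 without Slc26a5 in 7, Slc26a5 without Aqp11 in 4, and neither in 15. Aqp11 was thus detected in 47 of 51 cells with Slc26a5 (92.2%, exact interval 81.1% to 97.8%) and in 7 of 22 without it (31.8%, 13.9% to 54.9%). Each interval covers counting error over cells only, and no cell is tied to an animal. Aqp11 was chosen for its correlation with Slc26a5 in these same cells, which favours such a contrast. The shares are therefore a description, and their intervals are no test of a difference.

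The exceptions were not all near the threshold. In the 7 cells with Aqp11 alone, it stood at 38.9 to 118 CPM (median 49.1), while Slc26a5 stood at 0.27 to 6.25 CPM. In the 4 cells with Slc26a5 alone, it stood at 20.9 to 75.4 CPM, and Aqp11 stood at 0 to 2.67 CPM. In the 47 cells with both, the ratio of the Aqp11 level to the Slc26a5 level in CPM ran from 0.0847 to 9.58 around a median of 1.07, and it was above 1 in 24 cells. The lowest ratio was in cell 57, with Aqp11 at 65.4 CPM and Slc26a5 at 772 CPM. The highest was in cell 30, with Aqp11 at 514 CPM and Slc26a5 at 53.7 CPM.

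The correlation within ranges of Slc26a5 was positive in each and lowest in the middle one. With Slc26a5 under 10 CPM (22 cells), Aqp11 had a median of 0.20 CPM and a highest value of 118 CPM, with a correlation of 0.59 within the range. Slc26a5 stood at no more than 6.25 CPM in these cells and at 0 in 4 of them, so this correlation ranks values under the detection threshold. From 10 to 100 CPM (19 cells), the median of Aqp11 was 28.96 CPM, 15 cells had it and the correlation was 0.28. At 100 CPM or more (32 cells), Aqp11 ran from 22.3 to 1636 CPM with a median of 418 CPM, and the correlation was 0.68. Of the 13 cells highest for each gene, 8 were shared.

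**Figure D2:**
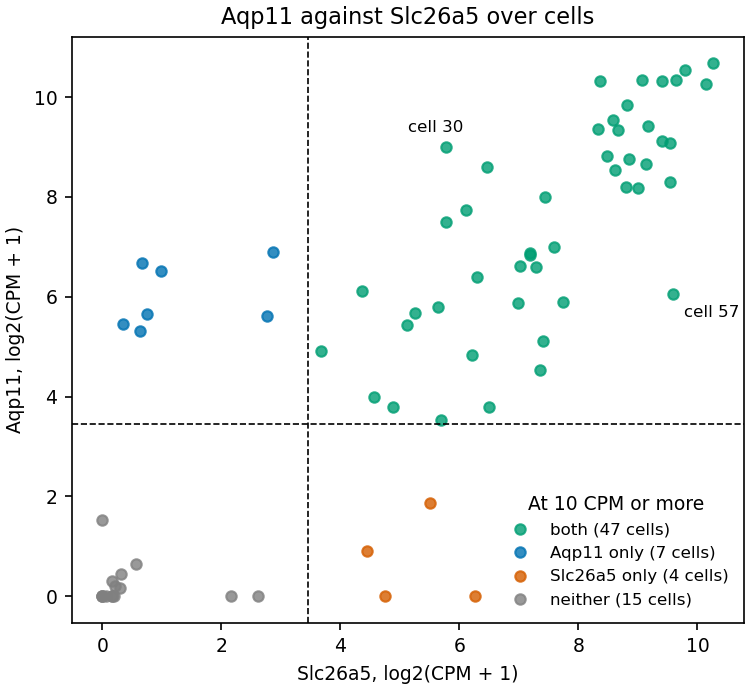
Aqp11 against Slc26a5, both as log2(CPM + 1), with 1 point per cell coloured by which gene reached 10 CPM (dashed lines). The 47 cells with both genes spread around a ratio of 1, the 7 with Aqp11 alone form the upper left group, and cells 30 and 57 have the highest and the lowest ratio of the cells with both.

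Genes next to Aqp11 on chromosome 7 had lower correlations with it than Slc26a5 did. Clns1a, a chaperone of spliceosome assembly, 3210 bases from Aqp11, was detected in 62 cells and had a rank correlation of 0.03 with Aqp11. Rsf1, a chromatin remodelling factor, stood at -0.11, and Pak1, a kinase of the actin cytoskeleton, at 0.34, where the 95th percentile over all genes was also 0.34. The Rsf1 antisense transcripts Rsf1os1 and Rsf1os2 were detected in 2 and 3 cells.

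Over the 73 cells, 139 of 8618 genes reached a rank correlation with Aqp11 of 0.5 or higher (1.61%), and 90 reached -0.5 or lower (1.04%). The same counts for Slc26a5 were 116 (1.35%) and 75 (0.87%). Just inside the upper threshold was H2-D1 (0.501) and just outside it Myo1e (0.496). Just inside the lower threshold was Srd5a1 (-0.501) and just outside it Spata6 (-0.497). By the number of genes at 0.5 or higher, Aqp11 ranked 20 of the 8619 genes, Slc26a5 35, Calb1 13 and Prxl2a 3. Several genes of this set thus had as many partners as Aqp11 or more.

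The genes that ranged with Aqp11 included calcium-binding proteins and a receptor of the outer hair cell. Calb1, the calcium buffer calbindin, ran from 0 to 6768 CPM with a median of 127 CPM and had a correlation of 0.81 with Aqp11. Of the 46 cells with Calb1, 43 had Aqp11. Chrna9, a subunit of the nicotinic receptor at the efferent synapse of hair cells, ran up to 980 CPM (median 133) and stood at 0.78, with Aqp11 in 48 of its 51 cells. For Calb1 and Chrna9, as for Slc26a5, no gene had a higher correlation than Aqp11 did. Sri, the calcium-binding protein sorcin, stood at 0.75, with detection in 71 cells and a median of 654 CPM. Hpcal1, a neuronal calcium sensor, stood at 0.72 and was detected in 41 cells, 36 of them with Aqp11.

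Several of the 15 highest genes encode enzymes or enzyme-like proteins. Prxl2a, a peroxiredoxin-like protein, was detected in 71 cells, reached 4531 CPM and stood at 0.79. Sirt2, a deacetylase that uses NAD, stood at 0.77, Aldh9a1, an aldehyde dehydrogenase of carnitine synthesis, at 0.76, and Mdh1, the cytosolic malate dehydrogenase, at 0.72. Mdh1 was detected in all 73 cells (180 to 6824 CPM), so its correlation is one of level and not of presence. The same holds for Spint2, a serine protease inhibitor, at 0.72.

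Other genes at the top were present mainly in cells with Aqp11. They were picked for their high correlation with Aqp11 in these same cells, which favours such overlap. The counts therefore only describe, beside Aqp11 in 54 of all 73 cells (74.0%). The same holds for the shared counts of Calb1, Chrna9 and Hpcal1 above, and of Atp2a3, Osbp2 and Igfbp5 below, which were picked by correlation too. Pole, the catalytic subunit of DNA polymerase epsilon, was detected in 28 cells, 27 of them with Aqp11. Sox10, a transcription factor of neural crest and glia, was detected in 27 cells, 26 with Aqp11, and Socs2, a suppressor of cytokine signalling, in 29, 27 with Aqp11. Cubn, the endocytic receptor cubilin of the kidney tubule, was detected in 37 cells, 35 with Aqp11. The pseudogene Ifi203-ps was detected in 26 cells, all with Aqp11, but reads of related genes could have been counted there. These genes stood at 0.70 to 0.76. Aqp11 was also present in many cells that lacked each of them, since it was detected in 54.

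At the other end, Atp2a3, the ER calcium pump SERCA3, had the lowest correlation with Aqp11, -0.81. It ran from 0 to 2248 CPM with a median of 164 CPM. Atp2a3 was detected in all 19 cells without Aqp11 and in 34 of the 54 cells with it. Osbp2, an oxysterol-binding protein (-0.74), and Igfbp5, a binding protein of insulin-like growth factors (-0.73), had the same counts. Tomm7, a subunit of the import complex of the outer mitochondrial membrane, was detected in every cell at 184 to 1652 CPM and stood at -0.78. Pdcd6, a calcium-binding protein (-0.72), Chst2, a sulfotransferase (-0.67), Map4k4, a kinase (-0.67), and Dpysl2, a regulator of microtubules (-0.65), were also detected in every cell. Rps6ka2, a ribosomal S6 kinase, stood at -0.71, Ripor3 at -0.71, and Kcnab1, a potassium channel subunit, at -0.70. Bin1, a membrane-bending protein (-0.67), Scd1, a fatty acid desaturase (-0.66), and Mical2, an actin-oxidising enzyme (-0.66), complete the lowest genes reported here.

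Within the 54 cells with Aqp11, all 15 highest and all 15 lowest genes also stood at 0.5 or more in size. They were chosen as extremes over all cells, including these 54, so high values there are favoured by the choice. The subset also removes only the absence of Aqp11. Pole was detected in 27 of the 54 cells and Sox10 in 26, so presence against absence can still enter their values. Mdh1 (0.65), Spint2 (0.69) and Tomm7 (-0.75) were detected in all 54 cells, so these values are of level.

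**Figure D3:**
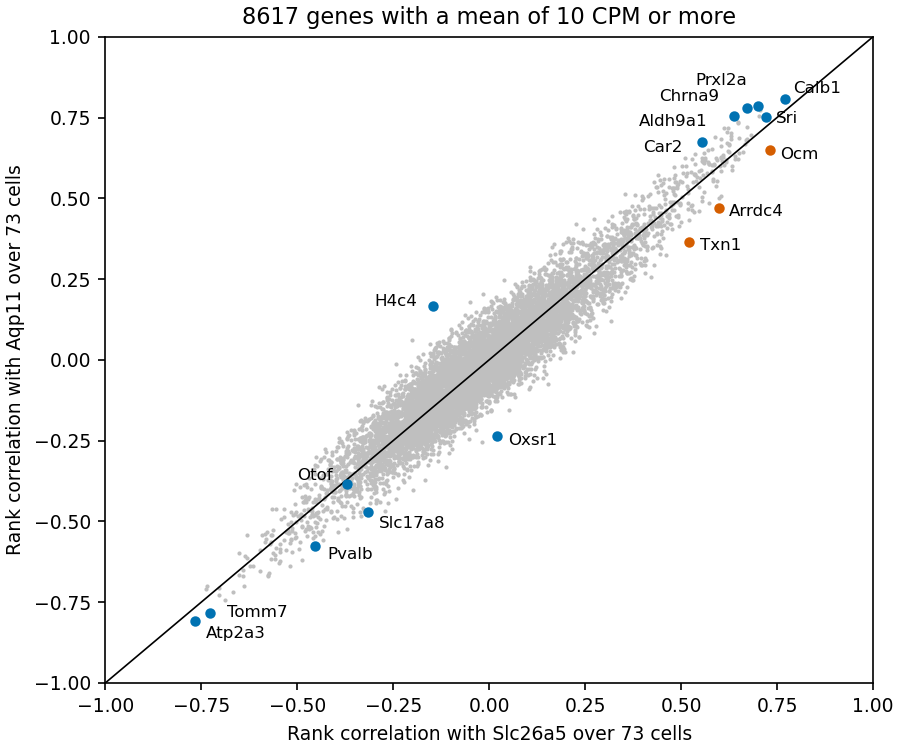
Rank correlation over 73 cells with Slc26a5 (x axis) and with Aqp11 (y axis) for each of 8617 genes averaging at least 10 CPM (grey), with named genes in blue where the correlation with Aqp11 is larger in size and in orange where that with Slc26a5 is. Nearly all genes lie along the line of equal values, with Chrna9 and Aldh9a1 above it at the top, Ocm, Arrdc4 and Txn1 below it, and H4c4 and Oxsr1 to either side.

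Most genes that ranged with Aqp11 ranged with Slc26a5 too. Of the 138 genes at 0.5 or higher with Aqp11, Slc26a5 aside, 103 also reached it with Slc26a5 (74.6% of the Aqp11 genes and 89.6% of the 115 Slc26a5 genes). At -0.5 or lower, 63 genes were shared (70% of 90 and 84.0% of 75). The same cells enter both sides and the pair was chosen for its correlation, so this overlap is no result in itself.

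To see which genes followed Aqp11 beyond Slc26a5, the ranks of Slc26a5 were regressed out of both (partial rank correlation). Of 8617 genes, 24 stood at 0.4 or higher with Aqp11 (0.279%) and 18 at -0.4 or lower (0.209%). Not all of them varied strongly with Aqp11 before the correction. Of the 24, 20 had a plain correlation with Aqp11 of 0.5 or higher, while that of Txn2, for example, was 0.18. In the converse, with Slc26a5 given Aqp11, 4 genes reached 0.4 (0.0464%) and 4 reached -0.4 or lower (0.0464%). The genes just inside the upper threshold were Rcn1 and Txn2 (both 0.402), and just outside it Psmd11 (0.399). At the lower threshold, Cfap44 (-0.405) and Pvalb (-0.405) were inside and Mical2 (-0.398) outside. Over all genes, the partial correlation with Aqp11 had a median of 0.00 and ran from -0.21 to 0.23 between the 5th and 95th percentiles. Slc26a5 was itself measured in 1 library per cell, and a covariate measured with error removes only part of what it shares with other genes. The same holds for the converse.

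Of the 138 genes high with Aqp11, 20 kept a partial correlation of 0.4 or higher, and the median was 0.29. Of the 115 genes high with Slc26a5, 3 kept 0.4 given Aqp11, with a median of 0.18. For the low genes the medians were -0.27 (10 of 90 at -0.4 or lower) and -0.20 (0 of 75). Each set was chosen by its plain correlation in these same cells, which favours partial values of the same sign. Over all genes, 0.279% reached 0.4 with Aqp11 given Slc26a5, and 0.0464% with Slc26a5 given Aqp11. At -0.4 or lower the shares were 0.209% and 0.0464%. The counts and medians of these sets therefore only describe.

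The genes that stayed with Aqp11 included the efferent receptor gene Chrna9. It had a partial correlation of 0.54 with Aqp11 given Slc26a5, but 0.05 with Slc26a5 given Aqp11. Aldh9a1 stood at 0.52 and 0.02 in the same order, Prxl2a at 0.51 and 0.13, Hpcal1 at 0.47 and 0.03, Cubn at 0.47 and 0.08, and Sirt2 at 0.47 and 0.17. Calb1 stood at 0.46 and 0.30. Mdh1 and Sri, at 0.39 each with Aqp11 given Slc26a5, were below the threshold. Car2, a cytosolic carbonic anhydrase, stood at 0.46 and -0.03, Ifi203-ps at 0.46, Spint2 at 0.46, Ccer2 at 0.45, Sox10 at 0.43 and Pole at 0.43.

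H4c4 and Smim7 were in this set with low plain correlations. H4c4, a histone H4 gene with near-identical copies, had a correlation of 0.17 with Aqp11 and -0.15 with Slc26a5. Its partial values were 0.54 and -0.53, and it was detected in 24 cells at no more than 167 CPM. Smim7, a small membrane protein, had a correlation of 0.42 with Aqp11 and a partial value of 0.44.

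Atp2a3 again led the lower end, with -0.48 given Slc26a5, followed by Oxsr1 (-0.47) and Tomm7 (-0.46). Oxsr1, a kinase that regulates chloride cotransporters when cell volume changes, had a plain correlation of -0.24 with Aqp11 and 0.02 with Slc26a5. It was detected in 30 cells at no more than 135 CPM. Like Tomm7, Cisd3 (-0.44) and Ndufa2, a subunit of complex I (-0.44), are mitochondrial proteins. Ik, a splicing factor (-0.45), Ate1, an arginine transferase (-0.44), Eif5b, a translation initiation factor (-0.44), and Ift81, a protein of ciliary transport (-0.43), were also there. So were Dpy19l4 (-0.43), Ptpa, a phosphatase activator (-0.42), Agtpbp1, a tubulin deglutamylase (-0.42), Synrg, a protein of clathrin traffic (-0.42), Osbp2 (-0.42) and Bin1 (-0.42). Of the 18 genes at -0.4 or lower, 10 had a plain correlation of -0.5 or lower.

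The converse set, genes at 0.4 or higher with Slc26a5 given Aqp11, held 4 genes. Ocm, the calcium buffer oncomodulin of outer hair cells, had plain correlations of 0.73 with Slc26a5 and 0.65 with Aqp11. It had a partial correlation of 0.45 with Slc26a5 given Aqp11 and 0.09 with Aqp11 given Slc26a5. Arrdc4, an arrestin-like adaptor, stood at 0.42 and -0.07, with plain correlations of 0.60 and 0.47. Txn1, thioredoxin, stood at 0.42 and -0.15, with plain correlations of 0.52 and 0.36. Oxsr1 stood at 0.41 in this converse, although its plain correlation with Slc26a5 was 0.02. Genes at the lower end included H4c4 (-0.53), the RNA helicase Dhx15 (-0.42) and Arfgef2, a factor of vesicle traffic (-0.41).

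**Figure D4:**
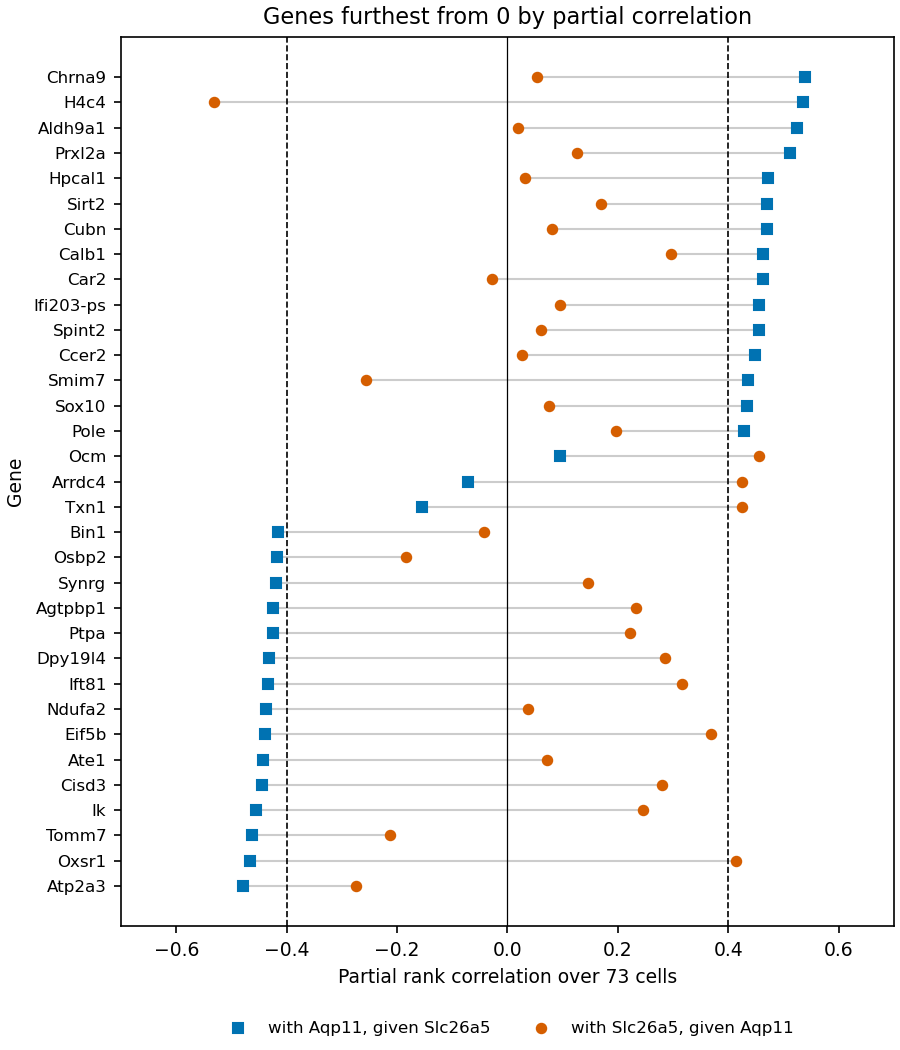
Partial rank correlation over 73 cells with Aqp11 given Slc26a5 (squares) and with Slc26a5 given Aqp11 (circles) for the 15 highest and 15 lowest genes by the former and the 3 other genes at 0.4 or higher by the latter, with dashed lines at 0.4 and -0.4. Chrna9 and Aldh9a1 lie past 0.4 for Aqp11 and near 0 for Slc26a5, while Ocm lies at 0.09 for Aqp11 and 0.45 for Slc26a5.

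Properties of the libraries moved with Aqp11. Its rank correlation was -0.50 with the share of counts from mitochondrial genes, 0.62 with the share from ribosomal protein genes, 0.20 with the library total and -0.25 with how many genes had a read. The values for Slc26a5 were -0.49, 0.67, 0.27 and -0.30. Given Slc26a5, those of Aqp11 became -0.19, 0.15, -0.06 and -0.01. With ranks corrected for the ribosomal share, a correction chosen after seeing the data, Aqp11 and Slc26a5 stood at 0.72. Then 26 genes in place of 139 reached 0.5 or higher with Aqp11, and 19 in place of 90 reached -0.5 or lower. All 15 highest genes, but 9 of the 15 lowest, stayed at 0.5 or more in size. Corrected for the mitochondrial share, 62 and 41 genes were left, and all 15 highest and 15 lowest stayed. Counts of partial correlations moved less, to 19 and 18 with the ribosomal share and 20 and 15 with the mitochondrial share. What part these properties have in the correlations was not tested.

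Markers of other cell types were present too. The summed level of 53 such markers had a rank correlation of 0.48 with Aqp11 and 0.19 given Slc26a5. The glial list led this, with a sum of 0 to 498 CPM (median 45.5) and a correlation of 0.60. Within it Sox10 (27 cells) and Cnp (29 cells) were detected, while Mbp, Pmp22, Fabp7 and Mal, which mark glia, were each at 10 CPM in no more than 1 cell with a median of 0. The summed neuronal list stood at 0.43. Of its commoner members Nefl stood at 0.44, Snap25 at 0.22 and Nefm at -0.04, while Tubb3 was detected in 9 cells, Rbfox3 in 1 and Thy1 in 0 of 73 cells. The 6 other lists lay between -0.27 and 0.21. In 21 cells at least 1 of 43 markers that were rare in these cells reached 50 CPM. Without those 21 cells the correlation of Aqp11 with Slc26a5 was 0.82, with 127 and 95 genes at 0.5 or more in size. The part of the commoner markers was not tested.

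Genes of the outer and the inner hair cell lay mostly on opposite sides. The lists and their genes were chosen with results of these cells known, so their counts only describe. Of 10 outer hair cell genes compared, Slc26a5 left aside, 8 had a positive and 2 a negative correlation with Aqp11, with a median of 0.48 beside -0.02 over all genes. At 0.5 or higher were 5 of the 10: Calb1, Chrna9, Sri, Ocm (0.65) and Chrna10, the partner subunit of Chrna9 (0.53). Over all genes 1.61% were at 0.5 or higher. Calb1, Chrna9 and Sri were also named above as among the highest genes with Aqp11, so their place here is not a separate result. Lbh stood at 0.42. Kcnn2, the potassium channel SK2 that works with the efferent receptor, stood at 0.25, Mlf1 at 0.30, Car7 at -0.15 and Lmod3 at -0.09. Ikzf2, a transcription factor of the outer hair cell from the Ikaros family, was detected in 6 cells, and Insm1 in 0. Given Slc26a5, the median of the list was 0.12, against 0.00 over all genes.

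Of 11 inner hair cell genes compared, 9 had a negative correlation, with a median of -0.47. Calb2, the calcium buffer calretinin (-0.57), Slc7a14 (-0.56), Dnajc5b (-0.61) and Tbx2, a transcription factor that keeps inner hair cell fate (-0.50), were among them. Slc17a8, the glutamate transporter of the inner hair cell synapse, stood at -0.47 with Aqp11 and -0.32 with Slc26a5, and at -0.40 with Aqp11 given Slc26a5. Otof, the calcium sensor of that synapse, stood at -0.39. Fgf8 (0.56) and Rprm (0.55) went the other way. Fgf8 drives the Flp used to pick the cells. For 16 genes general to hair cells the median was -0.05. Cib2, a subunit of the transduction machinery, stood at -0.53, and no other member reached 0.5 in size.

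Lists close to the known biology of aquaporin 11 showed little common movement. Of 23 ER chaperones and genes of the unfolded protein response, 9 were positive and 14 negative, with a median of -0.07 beside -0.02 over all genes. None was at 0.5 or more in size. Over all genes 1.61% were at 0.5 or higher and 1.04% at -0.5 or lower, so their absence from a list of this size says little. Hspa5, the main ER chaperone, stood at -0.08, Hsp90b1 at -0.34, Xbp1 at -0.06 and Atf4 at 0.09. Of the genes for ER oxidation, 3 averaged at least 10 CPM, Ero1l (-0.05), Ero1lb (-0.05) and P4hb (-0.17). Of 4 genes of ER calcium compared, Atp2a3 alone passed a threshold, while Atp2a2, the housekeeping pump of the same family, stood at 0.10.

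Of 16 peroxide-scavenging genes, 10 were positive and 6 negative, with a median of 0.09. Prxl2a and the glutathione peroxidase Gpx2 (0.62) were at 0.5 or higher, and the peroxiredoxin Prdx5 stood at -0.56. Gpx2 was abundant, with a median of 4647 CPM. Txn2, the mitochondrial thioredoxin, had a plain correlation of 0.18 with Aqp11 and a partial correlation of 0.40 given Slc26a5. For Txn1 these values were 0.36 and -0.15. Of 14 genes of cell volume and osmolytes, 8 were positive and 6 negative, with a median of 0.07. Lrrc8b, a subunit of the volume-regulated anion channel, stood at 0.49, and Slc5a3, the inositol transporter, at -0.43.

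The other aquaporins were sparse. Of the 10 genes, 6 were detected in at least 1 cell, Aqp3 had 1 count in 1 cell, and Aqp6, Aqp9 and Aqp12 had none in 73 cells. A count of 0 of 73 allows a share of up to 4.11% by the rule of 3 and 4.93% by the exact interval, for cells with a read. Of all counts of Aqp11 and these 10 genes together, Aqp11 made up 92.9%.

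Aqp7, a channel for water and glycerol, was the most frequent of them, detected in 19 cells (26.03%, exact interval 16.5% to 37.6%) with a highest value of 137 CPM. Its mean per kilobase was 4.17 CPM per kb against 73.5 for Aqp11. Of its 19 cells, 15 had Aqp11, against 54 of 73 of all cells, and its rank correlation with Aqp11 was 0.05. The cells with most Aqp7 ran from low to high Aqp11: cell 15 had 137 CPM of Aqp7 and 96.6 CPM of Aqp11, cell 70 had 59.9 and 1492, and cell 18 had 46.3 and 1.87.

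Aqp8 was detected in 6 cells (up to 87.4 CPM), Aqp5 in 4, Aqp4 in 3 (up to 58 CPM), Aqp1 in 2 (up to 46.1 CPM) and Aqp2 in 2 (up to 22.9 CPM). The highest Aqp4 and Aqp1 values fell in the same cell, cell 38. Aqp5 reached 206 CPM in cell 20, which was also the fourth highest for Aqp11. All 4 cells with Aqp5 had Aqp11, and its correlation of 0.35 rests on 17 cells with any read. At least 1 of the 10 genes was detected in 32 cells, and never more than 2. The sum of the 10 genes had a median of 5.60 CPM, and its rank correlation with Aqp11 was 0.18. It was above the Aqp11 level in 19 cells, and in 11 of those it reached 10 CPM. The pseudogene Aqp10-ps was detected in 1 cell.

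**Figure D5:**
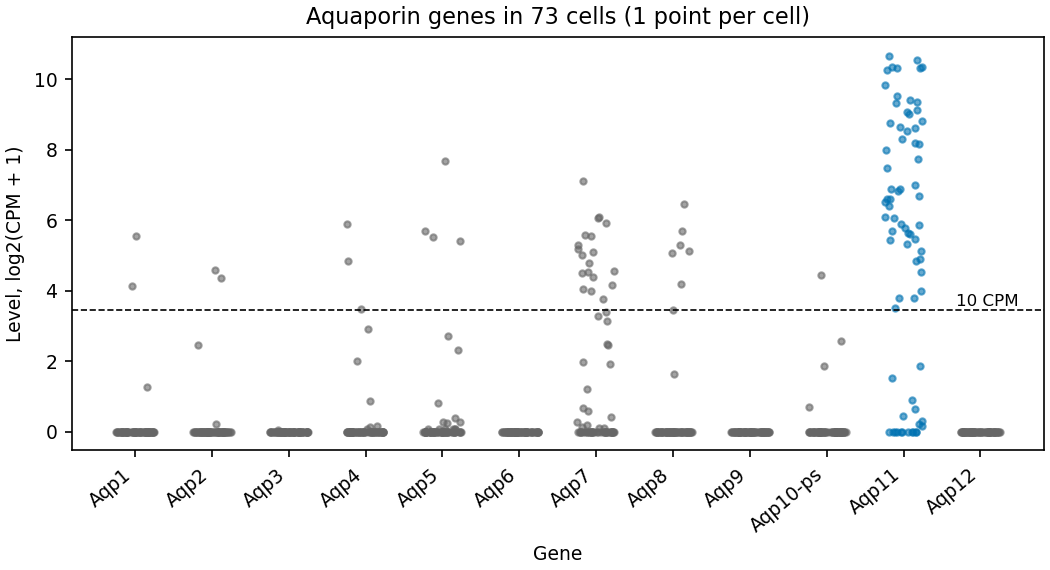
Level of each gene whose symbol starts with Aqp and a number as log2(CPM + 1). There is 1 point per cell for 73 cells, a dashed line at 10 CPM and Aqp11 in blue. Aqp11 passes 10 CPM in 54 cells, Aqp7 in 19 and every other gene in 6 or fewer.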

How the data were processed

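The 73 cells were digested with papain, protease and dispase and amplified with the Smart-Seq HT kit before tagmentation, per the labels' protocols. Without molecular identifiers, PCR copies are counted too. HISAT2 2.2.1, StringTie 2.2.1, featureCounts 2.0.1 and mm10 are named in the submitters' processing notes, without role or order. The annotation release and strand setting are not given in the sources used here. In the deposited table, values are raw counts, 55292 rows by 73 cells. The last row, the element WPRE (0.0161% of counts), was left out of totals.

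Counts were divided by library totals (median 17333640) to give CPM. No test was run: 1 group with no animal named has no replicates. Spearman correlations over 73 cells used genes averaging at least 10 CPM, and a gene was detected at 10 CPM. Thresholds were 0.5 and, for partial correlations, 0.4. Doublets were not called among hand-picked cells. Correlation steps were tested on simulated data, with pass limits set only for a covariate measured with little noise. A noisy covariate was simulated without a pass limit. The simulation therefore does not show how well the partial correlation works with Slc26a5 as measured here. Positions and lengths came from GENCODE vM21, whose symbols matched 53292 gene rows and 98.6% of counts. Both promoters matched the RefSeq table by symbol.

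Aqp11, the lists and the thresholds were chosen with earlier results of these data known. Named genes are the aquaporins, list members, neighbours within 100 kb, and the 15 highest and 15 lowest by correlation and by partial correlation (for the converse, those past 0.4), skipping genes without an official name. Some genes the rule names are not reported here. Alternatives changed scaling, correlation, filters, cells and corrections for library properties (CPM without mitochondrial genes, edgeR 4.0.16 TMM factors in R 4.3.3). Scripts ran in Python 3.11.15 with scipy 1.17.1, pandas 2.3.3, numpy 2.4.6 and matplotlib 3.10.9.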

Additional observations from a re-analysis of the deposited data

How the results depend on the processing

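The correlation of Aqp11 with Slc26a5 lay between 0.72, corrected for the ribosomal protein share, and 0.84 over 13 alternatives, and no value changed sign. Corrected for that share, an alternative chosen after seeing the data, 26 genes stood at 0.5 or higher and 19 at -0.5 or lower, and corrected for the mitochondrial share 62 and 41. A threshold of 0.6 gave 68 and 27. The 24 high and 18 low partial correlations were less stable. Pearson correlation of log2(CPM + 1) gave 15 and 7, and log2(CPM + 10) gave 37 high. A threshold of 0.5 gave 4 and 0. With fewer cells, where correlations spread more widely, there were 55 and 50 (52 cells without rare markers) and 89 and 68 (the 54 cells with Aqp11, chosen after seeing the data). Aqp11 was present in 84.9% of cells at 1 count, also after thinning to equal totals, and in 56.2% at 50 CPM. For named genes, 420 of 500 correlations and 469 of 500 partial values moved by less than 0.1, as did 84 of 90 list medians. Over 10 alternatives the partial value of Chrna9 stayed at 0.45 or higher, but that of Aldh9a1 fell to 0.32 and that of Pole to 0.33. Those of Synrg and Bin1 were at -0.4 or lower in 6 of the 10. No paired analysis was possible because the series has 1 group. Low counts limit the partial values of genes such as H4c4 and Oxsr1, which were at or near 0 in most cells.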
